A study of Mus musculus with 9 samples.

Results

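Basement membranes are thin sheets of extracellular matrix that surround cardiomyocytes and lie beneath the endothelium of cardiac vessels. They are built from 2 networks, one of type IV collagen and one of laminin, joined by nidogens and by heparan sulfate proteoglycans such as perlecan, and cells attach to them through integrins and dystroglycan. The levels of 10 genes for these proteins were followed in neonatal rat ventricular myocytes (NRVMs) that overexpressed the transcription factor Nrf1, its relative Nrf2, or LacZ, a bacterial enzyme that served as the control. The genes were chosen by name: the collagen chains *Col4a1*, *Col4a2* and *Col18a1*, the laminin chains *Lama2*, *Lama4*, *Lamb1* and *Lamc1*, the nidogens *Nid1* and *Nid2*, and *Hspg2*, which encodes perlecan. Of these 10 genes, 5 matched a row in each of the 3 deposited tables, among 14443 genes found in all of them: *Col4a1*, *Col18a1*, *Lama4*, *Lamc1* and *Nid2*. The other 5, *Col4a2*, *Lama2*, *Lamb1*, *Nid1* and *Hspg2*, were not analysed here.

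All groups were primary cardiomyocytes from Sprague Dawley rats of 1 or 2 days of age, kept in culture for 48 h and then infected with an adenovirus at an MOI of 50. Per the paper's methods, the cells were collected for RNA another 48 h after infection. The 3 groups were Adeno-LacZ, Adeno-Nrf1 and Adeno-Nrf2, with 3 libraries each. The factors were the mouse proteins, driven in all infected cells by a CMV promoter rather than one of cardiomyocytes. The organism field of the labels reads mouse, while the cell type, strain and genome build of the same labels are those of rat. The labels do not say whether the libraries of a group came from separate isolations, so that p-values measure the spread between these libraries, which may be technical, and they name no batch.

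The deposited tables hold the mean of each group and no value per library. Each mean is a sum of whole reads over 3 libraries, and each group stands in 2 tables with different scaling, which allowed the reads of each library to be solved for. A single solution was found for 14442 of 14443 genes in the LacZ group and for all 14443 in the Nrf1 and Nrf2 groups. Library totals ran from 7874370 to 11905027 recovered reads. The libraries are called A, B and C from the deepest to the shallowest within a group, and these letters are not the replicate numbers of the labels. *Nfe2l2*, the gene for Nrf2, lay between 3399 and 3493 normalized reads in the LacZ libraries and between 67554 and 78772 in the Nrf2 libraries, a 21.6-fold higher mean. *Nfe2l1*, the gene for Nrf1, was not analysed here, so the overexpression of Nrf1 was not checked.

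*Col4a1*, which encodes a chain of the type IV collagen network, was lower with either factor than with LacZ. In LacZ libraries A, B and C it had 32725, 34616 and 32814 normalized reads. In the Nrf1 libraries it had 22048, 22778 and 21813, and in the Nrf2 libraries 22810, 23731 and 22375. No library with a factor reached the lowest LacZ library, and the Nrf1 and Nrf2 libraries overlapped. The authors' means gave a log2 ratio of -0.59 for Nrf1 over LacZ, 1.51-fold lower. For Nrf2 over LacZ the ratio was -0.54, 1.45-fold lower. By limma across all genes both differences passed, with an estimate of -0.59 (SE 0.0270, adjusted p = 1.06e-12) for Nrf1 and -0.54 (SE 0.0265, adjusted p = 4.90e-12) for Nrf2. For Nrf2 over Nrf1 the limma estimate was 0.05, with a 95% interval from -0.01 to 0.11 and an adjusted p of 0.145.

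*Nid2*, encoding a nidogen that links laminin to type IV collagen, was also lower with both factors. Its normalized reads were 3648, 3180 and 3525 in the LacZ libraries. They were 2485, 2606 and 2565 with Nrf1, and 2628, 2675 and 2810 with Nrf2. The groups with a factor lay below all LacZ libraries, although LacZ library B stood closer to them than the other two. The Nrf2 libraries lay above the Nrf1 libraries. The log2 ratio of the authors' means was -0.44 for Nrf1 over LacZ (limma adjusted p = 9.03e-08) and -0.35 for Nrf2 over LacZ (limma adjusted p = 1.60e-06). Between Nrf2 and Nrf1 the limma estimate was 0.08 (95% interval -0.01 to 0.18, adjusted p = 0.127).

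The laminin genes separated the factors. *Lama4* encodes the alpha chain of laminins found in vessel walls and muscle. It had 4973, 4663 and 4557 normalized reads with LacZ, 4042, 4028 and 3987 with Nrf1, and 4794, 4912 and 5054 with Nrf2. All Nrf1 libraries lay below all others, while the LacZ and Nrf2 libraries overlapped. The log2 ratio was -0.24 for Nrf1 over LacZ (limma adjusted p = 8.55e-06) and 0.29 for Nrf2 over Nrf1 (limma adjusted p = 8.29e-07). For Nrf2 over LacZ the limma estimate was 0.05, with a 95% interval from -0.02 to 0.13 and an adjusted p of 0.173.

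*Lamc1*, the gamma chain shared by most laminins, had 18229, 17542 and 18050 normalized reads with LacZ. It had 16890, 17215 and 16994 with Nrf1, and 19467, 19940 and 19520 with Nrf2. The 3 groups did not overlap, with Nrf1 lowest and Nrf2 highest. The differences were small: the log2 ratio was -0.08 for Nrf1 over LacZ (limma adjusted p = 0.00786), 0.13 for Nrf2 over LacZ (limma adjusted p = 6.79e-05) and 0.20 for Nrf2 over Nrf1 (limma adjusted p = 3.46e-07). With libraries scaled to their total reads, the limma estimate was -0.14 for Nrf1 over LacZ (adjusted p = 6.05e-06) and 0.046 for Nrf2 over LacZ (adjusted p = 0.0487).

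*Col18a1*, whose product carries the endostatin fragment, was the only one of the 5 genes that was higher than LacZ with both factors. Its normalized reads were 2047, 2245 and 2166 with LacZ, 2414, 2514 and 2321 with Nrf1, and 2419, 2518 and 2380 with Nrf2. Every library with a factor lay above the LacZ libraries, and the Nrf1 and Nrf2 libraries overlapped. The log2 ratio was 0.16 for Nrf1 (limma adjusted p = 0.00141) and 0.18 for Nrf2 (limma adjusted p = 0.000878). With libraries scaled to their total reads, the limma estimate was 0.10 for Nrf1 (adjusted p = 0.0375), and for Nrf2 it was 0.098 and no longer passed (adjusted p = 0.0509). Between the factors the limma estimate was 0.01 (95% interval -0.07 to 0.10, adjusted p = 0.808).

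**Figure D1:**
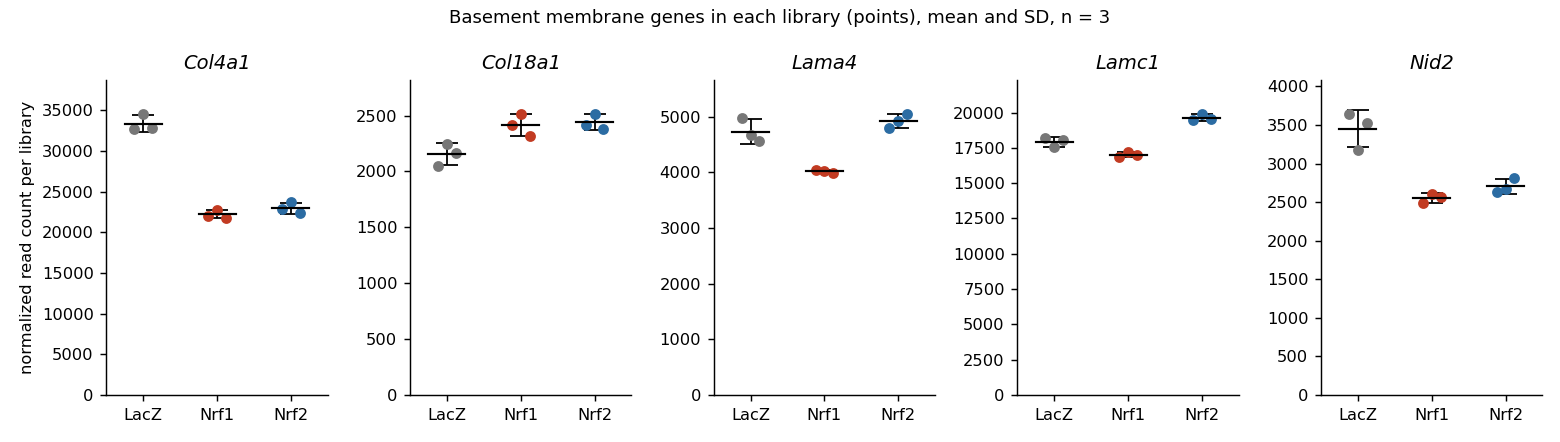
Normalized read count (y axis, from 0) of *Col4a1*, *Col18a1*, *Lama4*, *Lamc1* and *Nid2* in each of 9 libraries by group (x axis); points are libraries A, B and C from left to right, and lines show the mean and SD of 3 libraries. *Col4a1* and *Nid2* are below LacZ in both other groups, *Lama4* is lowest with Nrf1, and *Col18a1* is above LacZ in both.

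Counted over the 5 genes, 1 was lower past 1.5-fold in Nrf1 over LacZ, *Col4a1*, and 0 were higher. Among all genes with an average mean of at least 10, 17.3% were lower and 11.5% higher past this fold. *Col4a1* stood just past the cutoff, and its call was lost when LacZ library B (-0.56), Nrf1 library A (-0.58) or Nrf1 library C (-0.57) was left out. In Nrf2 over LacZ 0 of 5 passed in either direction, where 10.4% of all genes were lower and 9.14% higher. In Nrf2 over Nrf1 0 of 5 passed, where 4.98% were lower and 11.5% higher. By limma at an adjusted p under 0.05, 4 of 5 fell and 1 rose with Nrf1 against LacZ, beside 32.4% of all genes lower and 35.2% higher. With Nrf2 against LacZ 2 fell and 2 rose, beside 27.5% and 29.3%. With Nrf2 against Nrf1 0 fell and 2 rose, beside 28.3% and 27.4%. The comparisons with LacZ share the LacZ libraries. The median log2 ratio over the 5 genes was -0.24, 0.06 and 0.08 in these comparisons, against 0.01, -0.0030 and -0.0082 over all genes.

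**Figure D2:**
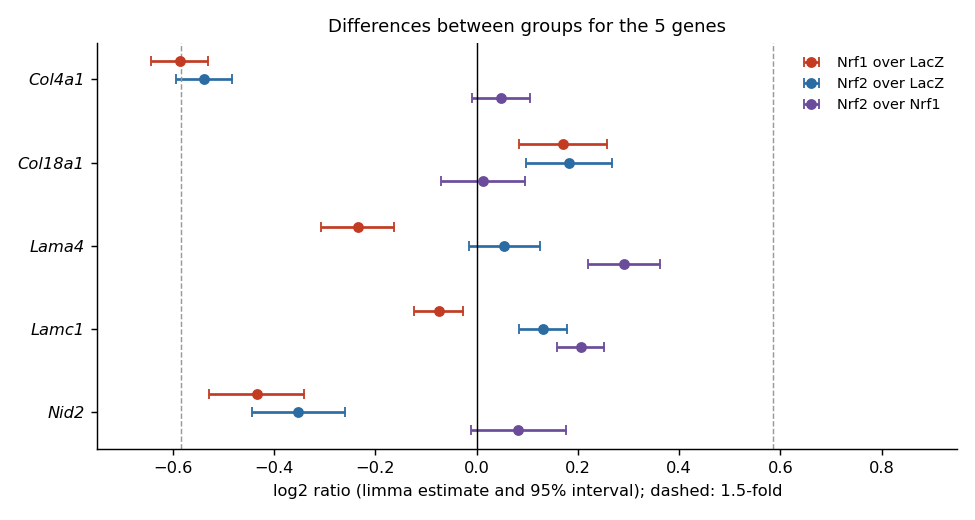
Log2 ratio (x axis) of each of the 5 genes (y axis) in the 3 comparisons; points are limma estimates, bars their 95% intervals, and dashed lines mark 1.5-fold. The Nrf1 and Nrf2 intervals lie on the same side of 0 for *Col4a1*, *Nid2* and *Col18a1*, and on opposite sides for *Lamc1*.

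The 5 genes together took 0.662% ± 0.0112 of the recovered reads with LacZ, 0.495% ± 0.00730 with Nrf1 and 0.533% ± 0.00920 with Nrf2 (SD, n = 3). Most of these reads were from *Col4a1* and *Lamc1*. Mean normalized reads of *Col4a1* were 33385, 22213 and 22972 with LacZ, Nrf1 and Nrf2, and those of *Lamc1* 17940, 17033 and 19642. The lower summed shares were thus not a fall of all 5 genes, and *Col18a1* was higher with both factors. Levels were not compared between genes, since no rat gene lengths were at hand.

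Reads of one gene per read of another in the same library do not depend on scaling. *Col4a1* had 1.86 ± 0.0969 reads per *Lamc1* read with LacZ, 1.30 ± 0.0198 with Nrf1 and 1.17 ± 0.0221 with Nrf2 (SD, n = 3). The 3 groups did not overlap. Reads of *Lamc1* per *Nid2* read went the other way, from 5.21 ± 0.271 with LacZ to 6.68 ± 0.104 with Nrf1 and 7.27 ± 0.281 with Nrf2. *Col4a1* and *Nid2*, which were both lower with each factor, had ratios of 9.72 ± 1.02, 8.71 ± 0.185 and 8.51 ± 0.480, where the LacZ libraries lay above the others and the Nrf1 and Nrf2 libraries overlapped. Over all 10 pairs of the 5 genes, the groups did not overlap in 10 pairs for Nrf1 against LacZ, in 7 for Nrf2 against LacZ and in 8 for Nrf2 against Nrf1. Such separation was common: over all pairs of genes with an average of at least 10 normalized reads it held for 69.1%, 61.3% and 60.8% of pairs, and over pairs with an average of at least 1000 for 82.2%, 77% and 79%. The counts for the 5 genes lie near these shares. With 3 libraries against 3 the two-sided exact permutation test cannot give a p under 0.1, so that no pair could pass.

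**Figure D3:**
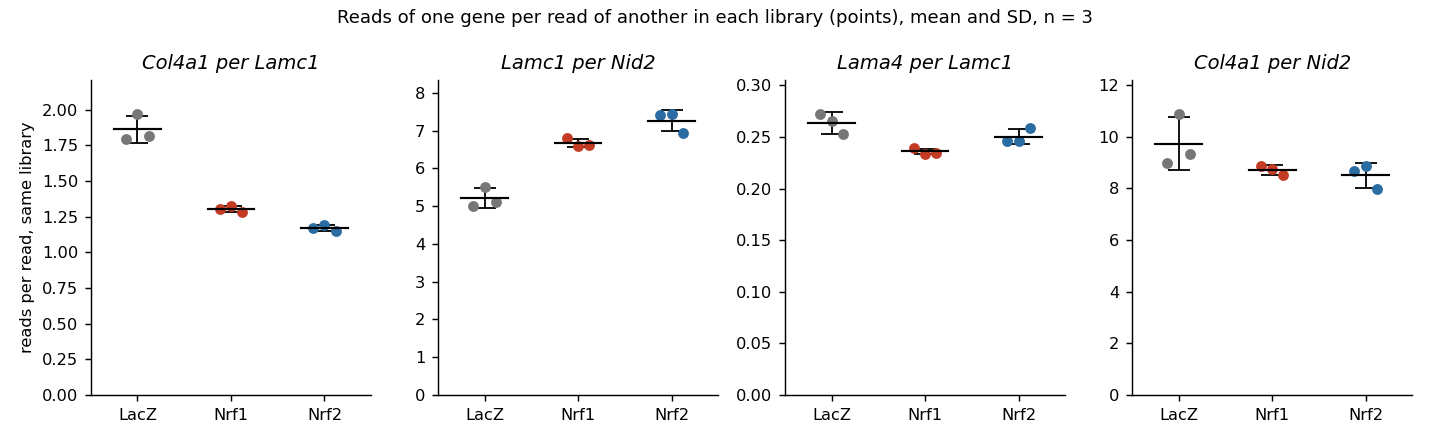
Reads of one gene per read of another in the same library (y axis, from 0) by group (x axis) for 4 of the 10 pairs; points are libraries, lines the mean and SD of 3. *Col4a1* per *Lamc1* is highest with LacZ and lowest with Nrf2, and *Lamc1* per *Nid2* is lowest with LacZ.

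Other basement membrane genes had lower medians than the 5 genes in the comparisons with LacZ, and a higher one, 0.16, in Nrf2 over Nrf1. Of 19 with an average mean of at least 10, 11 were lower and 2 higher past 1.5-fold in Nrf1 over LacZ, with a median log2 ratio of -0.70, and 9 were lower and 2 higher in Nrf2 over LacZ, with a median of -0.56. By limma 14 fell and 4 rose with Nrf1, 13 fell and 4 rose with Nrf2, and 5 fell and 9 rose in Nrf2 against Nrf1. Of all genes, 32.4% fell and 35.2% rose with Nrf1, 27.5% and 29.3% with Nrf2, and 28.3% and 27.4% in Nrf2 against Nrf1. Past 1.5-fold, 17.3% of all genes were lower and 11.5% higher with Nrf1, and 10.4% and 9.14% with Nrf2. *Agrn*, the proteoglycan agrin, fell by 1.24 on the log2 scale with Nrf1 and by 0.56 with Nrf2 (limma adjusted p = 4.33e-14 and 9.63e-10). *Frem1* fell by 1.62 with Nrf1 and by 0.77 with Nrf2 (limma adjusted p = 1.93e-07 and 5.29e-05). *Ntn4*, a laminin-related netrin, had log2 ratios of 1.23 for Nrf1 and 1.49 for Nrf2 over LacZ (limma adjusted p = 1.24e-11 and 1.05e-12). *Sparc*, a collagen-binding glycoprotein chosen here with its values known, had log2 ratios of -0.70 with Nrf1 and -0.39 with Nrf2 (limma adjusted p = 3.81e-13 and 1.64e-09).

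Genes for making and crosslinking collagen chains had medians of -0.34 and -0.29 over 14 genes in Nrf1 and Nrf2 over LacZ. By limma 11 fell and 2 rose with Nrf1, 11 fell and 1 rose with Nrf2, and 1 fell and 7 rose in Nrf2 against Nrf1. These counts stand beside the shares of all genes given above. *Pxdn*, the peroxidase that crosslinks type IV collagen, fell by 1.36 with Nrf1 and by 0.50 with Nrf2 (limma adjusted p = 2.42e-14 and 1.31e-08). *P4ha2*, a prolyl hydroxylase subunit, fell by 1.21 and by 1.04 (limma adjusted p = 8.71e-13 and 5.06e-12). *P3h2*, another prolyl hydroxylase, rose by 0.78 with Nrf1 and fell by 0.40 with Nrf2 (limma adjusted p = 1.76e-11 and 9.55e-07). In Nrf2 over Nrf1 its log2 ratio was -1.19 (limma adjusted p = 1.49e-13).

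Receptors for the basement membrane had medians of -0.23 and -0.05 over 15 genes. By limma 9 fell and 5 rose with Nrf1, 7 fell and 4 rose with Nrf2, and 4 fell and 8 rose in Nrf2 against Nrf1. The numbers that rose with either factor, and that fell in Nrf2 against Nrf1, lie near the shares of all genes, 35.2%, 29.3% and 28.3%. Of all genes 32.4% fell with Nrf1, 27.5% fell with Nrf2, and 27.4% rose in Nrf2 against Nrf1. *Bcam*, a laminin receptor, fell by 1.49 with Nrf1 (limma adjusted p = 2.17e-15) and by 0.48 with Nrf2 (limma adjusted p = 4.73e-09). *Itga1*, a collagen-binding integrin chain, fell by 0.99 with Nrf1 and by 0.41 with Nrf2 (limma adjusted p = 3.41e-12 and 4.19e-07). *Gpc1*, a heparan sulfate proteoglycan of the cell surface, rose by 0.96 and by 0.41 (limma adjusted p = 1.54e-14 and 6.03e-09). *Dag1*, dystroglycan, also chosen with its values known, had log2 ratios of 0.51 for Nrf1 and 0.36 for Nrf2 over LacZ (limma adjusted p = 6.33e-11 and 1.93e-08).

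Genes of basement membrane turnover had medians of -0.96 and -0.47 over 13 genes, with 10 and 5 lower past 1.5-fold and 0 and 2 higher. By limma 11 fell and 0 rose with Nrf1, 10 fell and 2 rose with Nrf2, and 2 fell and 11 rose in Nrf2 against Nrf1. Both sets of counts stand beside the shares of all genes given above. The list holds enzymes and also protease inhibitors, so its medians and counts do not give the direction of degradation. The inhibitors *Timp1*, *Timp2* and *Timp3* had log2 ratios of -0.74, -0.68 and -0.26 with Nrf1, and of -0.16, -0.56 and -0.12 with Nrf2. *Mmp2*, a gelatinase, fell by 1.75 with Nrf1 and by 0.60 with Nrf2 (limma adjusted p = 3.24e-17 and 2.21e-11). *Mmp14*, which activates it, fell by 1.55 with Nrf1 and by 1.02 with Nrf2 (limma adjusted p = 2.42e-14 and 3.67e-12). *Hpse*, heparanase, rose by 2.87 with Nrf2 (limma adjusted p = 1.91e-16) and fell by 0.96 with Nrf1 (limma adjusted p = 2.89e-07). *Mmp3*, stromelysin, likewise rose by 4.25 with Nrf2 (limma adjusted p = 3.51e-13) and fell by 1.92 with Nrf1 (limma adjusted p = 5.54e-05). Its level was low outside the Nrf2 group, with means of 53.2, 14.1 and 1012 normalized reads in the LacZ, Nrf1 and Nrf2 libraries.

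**Figure D4:**
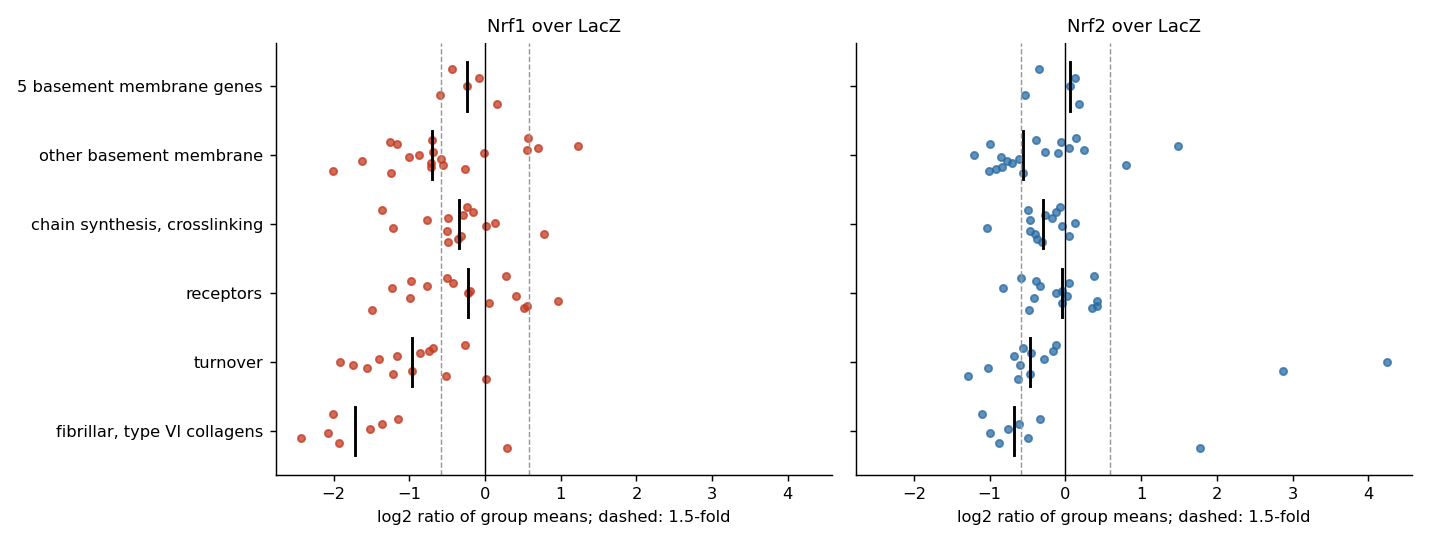
Log2 ratio of the authors' group means (x axis) for the genes of each list (y axis) in Nrf1 over LacZ and in Nrf2 over LacZ; points are genes with an average mean of at least 10, black bars the medians, and dashed lines mark 1.5-fold. The 5 basement membrane genes have medians of -0.24 and 0.06, and the fibrillar and type VI collagens of -1.72 and -0.68.

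Markers of other cells moved with the groups. The 8 fibrillar and type VI collagens, made mainly by fibroblasts, had medians of -1.72 with Nrf1 and -0.68 with Nrf2. By limma 7 of them fell and 1 rose with Nrf1, and 6 fell and 1 rose with Nrf2, beside the shares given above. *Col11a1* rose with both factors, with log2 ratios of 0.30 and 1.78 (limma adjusted p = 3.86e-05 and 4.15e-16). The 8 fibroblast markers had medians of -1.20 and -0.59, the 12 endothelial markers measured -0.90 and -0.89, the 7 pericyte and smooth muscle markers -1.13 and -0.23, and the 10 leukocyte markers -1.54 and -1.16. The 10 cardiomyocyte markers measured had medians of -0.28 and 0.22 and moved both ways: with Nrf1 6 fell and 2 rose, over log2 ratios from -1.07 for *Myh7* to 0.83 for *Ryr2*, and with Nrf2 2 fell and 6 rose, from -0.26 to 0.43 for the same genes. Summed over its 13 genes, the endothelial list lay between 5190 and 5246 normalized reads in the LacZ libraries, between 3063 and 3148 with Nrf1 and between 2866 and 3315 with Nrf2. *Eng* made the largest part of this sum, with means of 2894, 1550 and 1494 in the LacZ, Nrf1 and Nrf2 libraries. The summed fibroblast list lay between 24591 and 26733 with LacZ, between 22644 and 23093 with Nrf1 and between 22698 and 23837 with Nrf2, most of it from *Vim* and *S100a4*. By limma 7 of 8 fibroblast markers fell and 1 rose with Nrf1, and 6 fell and 1 rose with Nrf2, beside the shares of all genes given above. The one that rose was *S100a4*, with log2 ratios of 0.57 and 0.41. Of 12 endothelial markers 10 fell and 0 rose with Nrf1, and 10 fell and 1 rose with Nrf2, *Egfl7*, with a log2 ratio of 0.81. Of 7 pericyte and smooth muscle markers 6 fell and 0 rose with Nrf1, and 3 fell and 1 rose with Nrf2. Of 10 leukocyte markers 9 fell and 1 rose with Nrf1, and 9 fell and 0 rose with Nrf2. All these marker counts, those of cardiomyocytes included, stand beside the shares of all genes. With Nrf1 32.4% of all genes fell and 35.2% rose, and with Nrf2 27.5% fell and 29.3% rose. The cardiomyocyte markers that rose with Nrf1, or fell with Nrf2, did not exceed these shares. The endothelial marker *Cldn5* was near 0, with means of 1.87, 0.325 and 0.926 normalized reads in the LacZ, Nrf1 and Nrf2 libraries. Their part in the differences of the 5 genes was not tested, and fewer cells of a type cannot be told apart from less RNA per cell.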

How the data were processed

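RNA of 9 libraries in 3 groups was sequenced. Per the labels' processing notes and the paper's methods, the authors used FastQC 0.11.4, HISAT2 2.0.4 with the rat build Rnor_6.0, SAMtools 0.1.18 to remove duplicates, featureCounts 1.6.0 and edgeR 3.20.5. Removing duplicates from single-end reads can lower the highest counts. The signal the authors deposited is the mean over a group of read counts divided by size factors, computed separately for each pair of groups, in 3 tables. Their own fold changes and p-values were not used.

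Ratios were taken within a table, and genes with an average mean of at least 10 were counted past 1.5-fold. This was the design, with medians and the same counts for the 5 genes and for every other list, cell markers included. The balance of gene pairs was planned from the group means and is given from reads per library instead. The recovered reads and all that rests on them were added after the files were seen. Each group mean is a weighted sum of whole reads in 3 libraries and stands in 2 tables, written with 10 or 15 digits, so the whole reads were searched for that gave both means. The search allowed a library 0.4 to 2 times the group mean, or every split below a mean of 60. For 17 genes, 0 of them members, only a wider search, added last, gave a solution. As a check, the second mean was shifted by 37 rounding units: of 11334, 10993 and 11332 genes shifted in the LacZ, Nrf1 and Nrf2 groups, 0 were solved. For the 5 genes the recovered reads gave back the deposited means to within 4.58e-06.

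Recovered reads were scaled by the median ratio over 9 libraries. limma 3.58.1 (voom, R 4.3.3) was fitted across 11323 genes with an average of at least 10, in 1 model of 3 groups, with Benjamini-Hochberg adjustment per comparison. On simulated data, the reads of the 3 libraries, compared without regard to their order, were recovered for 34010 of 34010 gene and group combinations that averaged at least 10 reads, among genes with a single solution in every group, and for simulated Nrf1 over LacZ 131 of 200 genes changed 1.5-fold were called in the right direction and 6 unchanged ones were called, of 11325 genes. The simulation changed only these 200 genes and gave every gene the same dispersion. In the data 32.4% of genes fell and 35.2% rose in Nrf1 over LacZ. The simulated rates of calls therefore do not describe the calls reported here. Members and lists were chosen with earlier results of these data known. Of each other list, the 2 highest and 2 lowest ratios per comparison among genes with an average mean of at least 100 were eligible to be named, all where at most 5 qualified. Some of these are named here, also with their values in comparisons where they did not qualify. *Sparc*, *Dag1*, *Eng* and *Cldn5* qualified in no comparison and are named outside this rule, with their values known. No sequence is shown, because the reference at hand was not of rat.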

Additional observations from a re-analysis of the deposited data

How the results depend on the processing

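Alternatives were a fold cutoff of 2, other minimum means, other scalings and pseudocounts, and, added after seeing the data, leaving out each recovered library, limma-trend, scaling to total reads, no filter, and leaving out genes found only by the wider search. No result changed sign past a threshold. At a fold cutoff of 2, 0 of 5 genes were lower in Nrf1 over LacZ, and the shares of all genes lower and higher were 9.13% and 3.96% in Nrf1 over LacZ, 3.87% and 4.09% in Nrf2 over LacZ, and 1.13% and 5.16% in Nrf2 over Nrf1. With an average mean of at least 100 the shares lower past 1.5-fold were 10.8% in Nrf1 over LacZ and 6.11% in Nrf2 over LacZ, and the share higher in Nrf2 over Nrf1 was 6.65%. With no minimum the share higher was 15.6% in Nrf2 over LacZ, and in Nrf2 over Nrf1 the shares were 8.72% lower and 20.1% higher. Divided by column sums, 1 gene, *Col4a1* (-0.62), was lower past 1.5-fold in Nrf2 over LacZ and the median of the 5 genes was -0.019. Leaving out 1 library, the count lower past 1.5-fold in Nrf1 over LacZ ranged from 0 to 1. The number higher by limma in Nrf2 over Nrf1 ranged from 2 to 4, where without LacZ library B *Col4a1* (adjusted p = 0.0401) and *Nid2* (adjusted p = 0.0337) passed too. The number higher in Nrf2 over LacZ ranged from 2 to 3, where without LacZ library A *Lama4* passed (adjusted p = 0.0195). Scaled to total reads, 1 gene was higher by limma in Nrf2 over LacZ, since *Col18a1* no longer passed (adjusted p = 0.0509). The cause was not tested. Without the 17 genes found only by the wider search the adjusted p of *Col4a1* in Nrf1 over LacZ was 8.23e-14 in place of 1.06e-12, and no call of the 5 genes changed. No paired analysis was possible because recovered libraries cannot be tied to replicate numbers.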
